A study of Mus musculus with 4 samples.

Results

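The genes described here are Dppa2, Dppa3, Dppa4, Dppa5a, Fbxo15, Utf1, L1td1, Tdh, Lin28a and Tcl1, a set of 10 genes widely used as markers of mouse embryonic stem cells. A gene was taken as measured where a row of the deposited array table is annotated with its symbol and no other. On that rule 9 of the 10 had a row, 1 row each, among 30142 genes. Tdh, which encodes a threonine dehydrogenase, was not analysed here. The arrays held total RNA of outgrowths, the structures that form when a blastocyst attaches in culture. Blastocysts were flushed at 3.5 days post coitum after intercrosses of Tip110+/- mice and grown one by one for 4 to 6 days in a medium for embryonic stem cells that contains knockout serum replacement. Wild-type embryos were compared with Tip110-/- embryos, and no agent was added to either. Tip110 is the gene Sart3, which encodes a factor for the re-assembly of the U4/U6 particle during splicing. Each genotype had 2 arrays: replicate 1 combined 3 outgrowths and replicate 2 came from 1 outgrowth. The strain is not given in the sources used here.

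Embryonic stem cells are derived from the inner cell mass, whose epiblast cells give rise to the embryo proper. They are held in the pluripotent state by the transcription factors OCT4 (Pou5f1), SOX2 and NANOG, and the genes described here are switched on in cells where these factors act. Their products do different work: DPPA2 and DPPA4 bind chromatin as partners, DPPA3 guards DNA methylation in the egg and zygote, DPPA5A, LIN28A and L1TD1 bind RNA, UTF1 binds chromatin, FBXO15 is an F-box protein, and TCL1 binds and activates the kinase AKT. An outgrowth also holds trophoblast, the lineage of the placenta, and primitive endoderm. In such mixed samples, fewer cells of a type and less RNA per cell cannot be told apart.

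The deposited signal is on the log2 scale, so a difference of 1 is a factor of 2. The gene median of an array was 4.21 (pool) and 4.22 (single outgrowth) for wild-type, and 4.45 (pool) and 4.32 (single outgrowth) for Tip110-/-. Rows for antigenomic background, probes with no target in the genome, had medians of 2.82 to 3.05. The hybridization controls were higher in both Tip110-/- arrays, by 0.335 to 0.792 in the means. The 8 spike control rows were higher by 1.415, at medians of 9.04 and 9.03 against 10.68 and 10.22. The exon control rows, taken to be exons of genes active in most cells, were lower, at medians of 9.80 and 9.66 against 8.69 and 9.51. The Tip110-/- pool was at the bottom. RNA per outgrowth was 249 and 178 pg in wild-type and 55.0 and 144 pg in Tip110-/-. These technical differences cannot be told apart from genotype. Sart3 itself was lower in both Tip110-/- arrays, at 4.28 and 4.54 against 4.94 and 5.98; whether its probes lie in the deleted part is not stated.

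The comparison of genotypes asks how far the signal of markers of the pluripotent state differs between Tip110-/- and wild-type outgrowths. All 9 measured genes had a lower mean in Tip110-/- than in wild-type outgrowths. For 8 of them, Tcl1 being the exception, both Tip110-/- arrays lay below both wild-type arrays. Fbxo15 and Dppa2 differed most, 25.3-fold and 17.3-fold in the means, and Utf1 and Lin28a least, 1.56-fold and 1.67-fold. Of the 30142 genes, 12.9% had both Tip110-/- arrays below both wild-type arrays, and of the 17491 genes above the median row of the table, where all 9 markers lie, 20.6% did. By limma, 6 of the 9 were lower at an unadjusted p under 0.05, a mark that 3.67% of all genes and 6.17% of genes above the median row reached. None was higher at that mark, and Utf1, Lin28a and Tcl1 did not pass. The set and the gene lists below were chosen with earlier results of these data known. Their counts beside these shares are therefore a description and not a test. Dppa4, Dppa5a and Fbxo15 were at the mark in all 14 alternative analyses, while Dppa2 was not in 6 of them, L1td1 in 4 and Dppa3 in 2. After Benjamini-Hochberg adjustment over the 30142 genes, 0 of the 9 passed, as for 0.0% of all genes (smallest limma adjusted p 0.318 among the markers and 0.154 among all genes). When the arrays were centred on their exon control rows instead, 3 of the 9 passed, together with 680 of all genes, and the prior degrees of freedom for the variance became infinite. The median difference of the 9 genes was -1.51, against 0.15 for all genes. With exon control centring these medians were -0.88 and 0.78, and without the Tip110-/- pool they were -3.30 and 0.11.

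**Figure D1:**
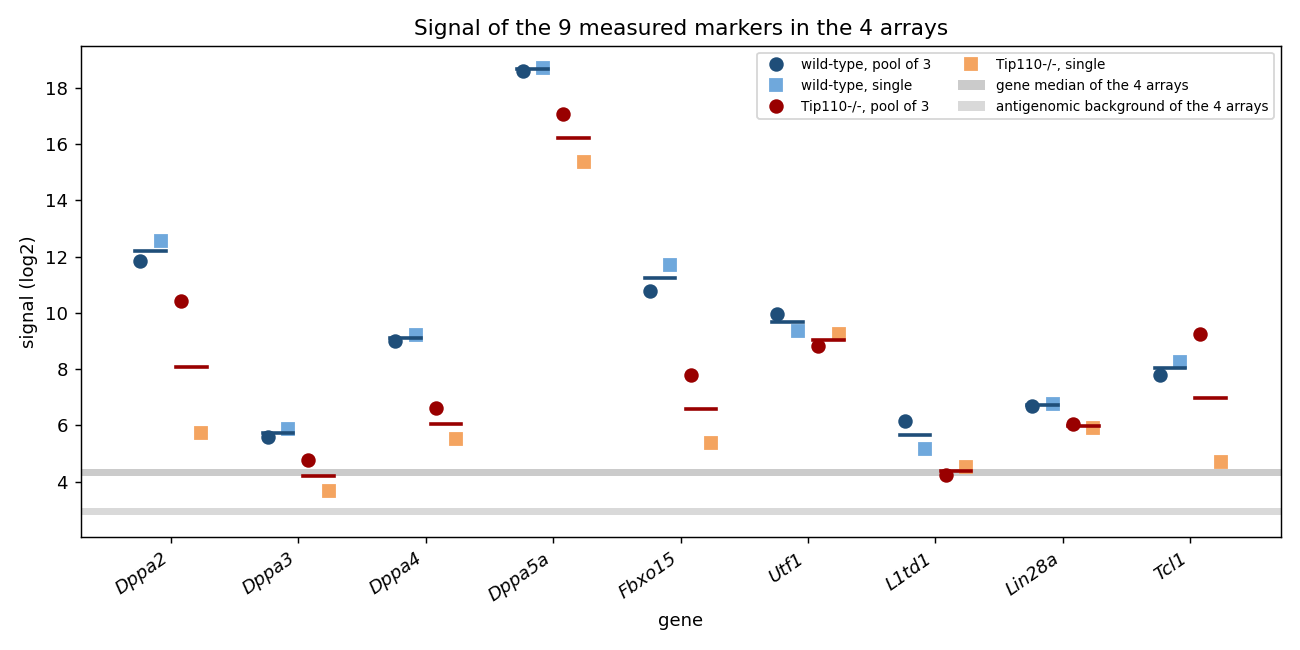
Signal (log2) of each measured marker in the 4 arrays; circles are pools of 3 outgrowths, squares single outgrowths, and short lines the mean of each genotype. The grey bands span the gene medians and the antigenomic background of the 4 arrays. In 8 of the 9 genes both Tip110-/- points lie below both wild-type points, while Tcl1 has its highest and its lowest value in the Tip110-/- arrays.

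**Figure D2:**
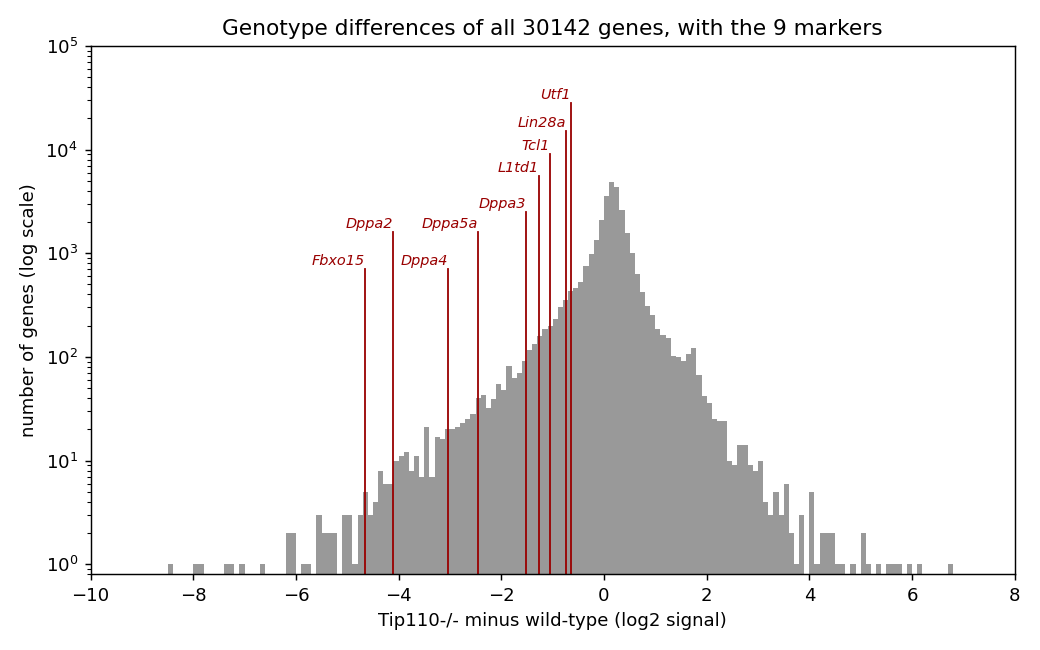
Number of genes (log scale) by difference between genotypes (Tip110-/- minus wild-type, log2 signal) for all 30142 genes, with red lines at the 9 markers; line height only separates the labels. The markers run from -4.66 for Fbxo15 to -0.64 for Utf1, all to the left of the median of all genes at 0.15.

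Dppa2 and Dppa4 encode SAP-domain proteins that form a heterodimer and bind gene promoters; the genes are neighbours on chromosome 16. Dppa2 signal was 11.85 and 12.55 in the pooled and single wild-type arrays and 10.43 and 5.74 in the pooled and single Tip110-/- arrays. The single Tip110-/- outgrowth stood far below the other 3 arrays, and the groups did not overlap. The means were 12.20 ± 0.49 (SD, n = 2) and 8.09 ± 3.32 (SD, n = 2), a difference of -4.11 ± 1.58 (SE; limma adjusted p = 0.391). Its size rested on the single Tip110-/- outgrowth: the difference was -1.76 without that array and -6.45 without the Tip110-/- pool. Dppa4 was at 9.00 and 9.20 in wild-type against 6.61 and 5.51 in Tip110-/-. Here the gap of 2.39 between the groups was wider than the spread within either genotype. The difference was -3.04 ± 0.55 (SE), the smallest adjusted p of the 9 genes (limma adjusted p = 0.318). In the pools Dppa2 differed by -1.42 and its partner Dppa4 by -2.39, while in the single outgrowths the order was the opposite, at -6.80 and -3.69.

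DPPA2 and DPPA4 are known to switch on Dux and, through it, genes of the 2-cell-like state. Of 24 such genes on the list, 20 had a row, and Dux itself was not among them. The median signal of the 20 was 3.45 and 3.51 in wild-type against 3.90 and 3.77 in Tip110-/-, under the gene median in every array. None was lower at an unadjusted p under 0.05 and 4 were higher, a mark that 8.99% of all genes reached in that direction. Usp17la was at 3.07 and 3.02 against 3.73 and 3.37, Zscan4e at 3.49 and 3.56 against 3.90 and 3.81, Gm4981 at 4.36 and 4.17 against 4.80 and 4.72, and Tcstv3 at 3.17 and 3.21 against 3.39 and 3.46. These are deubiquitinase, zinc finger and early embryo genes whose many near-identical copies can share probes. With quantile normalization, or with arrays centred on their gene median, 1 of the 20 was higher at that mark and the median difference was 0.07 or 0.10 in place of 0.27. Zfp809, a zinc finger gene of the list and named after its value was seen, was at 10.83 and 10.28 against 9.29 and 10.18, above the gene median of every array, and did not pass; 6 of the 20 genes lay above the median row.

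Dppa3, also called Stella, protects the maternal genome from loss of methylation and binds UHRF1. Its signal was low throughout, at 5.59 and 5.86 in wild-type against 4.75 and 3.68 in Tip110-/-. The single Tip110-/- outgrowth was below the gene median of its array. The difference was -1.51 ± 0.41 (SE; limma adjusted p = 0.339); it was -0.84 in the pools and -2.19 in the single outgrowths. Of 10 partners and methylation genes on a list for DPPA3, 3 were lower and 1 higher at an unadjusted p under 0.05. Over all genes 3.67% were lower and 8.99% higher at that mark, so 1 higher gene of 10 is near the share. Zfp57, which keeps imprints methylated, was at 8.95 and 10.08 against 5.76 and 5.19, and its corepressor Trim28 at 12.75 and 13.82 against 9.93 and 11.65. The dioxygenase Tet1 was at 11.02 and 12.20 against 8.63 and 4.58. Tet3, the dioxygenase of the zygote, was in the other direction, at 7.04 and 6.31 against 8.02 and 8.98. Uhrf1, which brings DNMT1 to hemimethylated DNA, was at 8.60 and 10.60 against 8.10 and 7.28, with p above that mark. The median difference of the list was -0.89. Without the single wild-type outgrowth it was -0.32, with 1 gene lower, without the wild-type pool -1.50, and with arrays centred on their exon control rows -0.26.

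Dppa5a, also called Esg1, encodes a KH-domain protein that binds RNA. It had the highest signal of the set, 18.61 and 18.70 in wild-type against 17.06 and 15.35 in Tip110-/-, close to the highest value of the whole table in wild-type (19.84 and 19.81). The wild-type arrays differed by only 0.088, and both Tip110-/- arrays were lower, the single outgrowth more so. The difference was -2.45 ± 0.56 (SE; limma adjusted p = 0.333), 5.46-fold in the means. Whether the scanner's range compressed it was not tested, and mouse retrocopies of Dppa5a and Dppa3 could share probes. The only other Dppa symbol with a row, Dppa1, went from 3.69 in the wild-type pool to 8.93 in the single wild-type outgrowth, and was at 6.27 and 4.51 in Tip110-/-. Its genotypes overlapped.

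Fbxo15 encodes an F-box protein and is a classic target of OCT4 and SOX2, used to report reprogramming. It was at 10.77 and 11.71 in wild-type against 7.80 and 5.36 in Tip110-/-. Every Tip110-/- value was at least 2.97 below every wild-type value, the widest gap of the set. The difference was -4.66 ± 0.96 (SE; limma adjusted p = 0.324), and 0.119% of all genes differed as far or further in that direction.

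Utf1 encodes a chromatin factor of the epiblast and of embryonic stem cells. Its signal was 9.97 and 9.35 in wild-type against 8.80 and 9.23 in Tip110-/-. The groups were separated by 0.118, less than the 0.615 between the wild-type arrays. The difference was -0.64 ± 0.55 (SE; limma adjusted p = 0.561), and it was -0.01 with arrays centred on their exon control rows. Tcl1 was at 7.79 and 8.26 in wild-type against 9.25 and 4.70 in Tip110-/-. The pooled Tip110-/- array was the highest of the 4 and the single Tip110-/- outgrowth the lowest. The mean difference of -1.05 ± 1.50 (SE; limma adjusted p = 0.719) therefore stands for neither array: it was 1.23 without the single Tip110-/- outgrowth and -3.32 without the pool. L1td1, which encodes an RNA-binding protein derived from a LINE-1 retrotransposon, was at 6.16 and 5.15 in wild-type against 4.24 and 4.53 in Tip110-/-. Both Tip110-/- values were near the gene median of their arrays, and the difference was -1.27 ± 0.39 (SE; limma adjusted p = 0.354). It was -0.76 without the wild-type pool.

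Promoters of these 3 genes are shown because their differences run from the smallest of the set (Utf1) through opposite values in the pool and the single outgrowth (Tcl1) to a mean difference at the unadjusted mark (L1td1). The RefSeq table of assembly GRCm38.p6 held a promoter for 4 of the 10 genes, these and Lin28a. The 250 bases before the start are at chr7:139943606-139943855 on the plus strand for Utf1, chr12:105222738-105222987 on the minus strand for Tcl1 and chr4:98726504-98726753 on the plus strand for L1td1. Capitals mark matches to the motifs searched on both strands.
Utf1: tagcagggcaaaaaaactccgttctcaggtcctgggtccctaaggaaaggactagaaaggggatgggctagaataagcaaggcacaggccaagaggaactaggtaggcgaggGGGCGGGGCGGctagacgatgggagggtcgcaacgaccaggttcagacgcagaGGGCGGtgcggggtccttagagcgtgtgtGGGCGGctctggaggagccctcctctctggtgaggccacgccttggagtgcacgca
Tcl1: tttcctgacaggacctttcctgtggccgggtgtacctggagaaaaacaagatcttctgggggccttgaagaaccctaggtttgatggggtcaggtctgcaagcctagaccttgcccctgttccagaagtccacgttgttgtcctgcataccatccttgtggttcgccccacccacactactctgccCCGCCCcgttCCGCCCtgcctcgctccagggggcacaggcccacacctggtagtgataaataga
L1td1: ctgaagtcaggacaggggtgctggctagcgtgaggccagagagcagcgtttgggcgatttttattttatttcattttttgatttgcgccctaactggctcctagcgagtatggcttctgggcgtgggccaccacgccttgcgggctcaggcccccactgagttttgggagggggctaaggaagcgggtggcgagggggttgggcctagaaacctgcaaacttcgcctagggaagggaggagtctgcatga
The motifs were the POU part of the octamer (ATGCAAA, in 4.12% of 32851 promoters of the same length), the SOX core (CATTGT, 10.7%), an ESRRB element (AAGGTCA, 4.08%), the GC box (GGGCGG, 32.7%) and the TATA box (TATAAA, 12.4%). Utf1 held 4 GC boxes, of which 2 overlap by 1 base, and Tcl1 held 2 on the opposite strand. None of the 5 motifs was found in the L1td1 window, and 1 SOX core was found for Lin28a. A match of letters is a description and not a binding site.

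Lin28a encodes an RNA-binding protein that blocks the maturation of let-7 microRNAs. Its signal was 6.68 and 6.74 in wild-type against 6.05 and 5.90 in Tip110-/-, with the tightest replicates of the set. The difference was small, -0.74 ± 0.32 (SE; limma adjusted p = 0.403), and the groups were separated by 0.625. It was -0.11 with arrays centred on their exon control rows. Its relative Lin28b was near the gene median in all arrays, at 4.05 and 3.71 against 4.01 and 3.70.

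Rows for let-7 genes were on the array as well. The annotation names the hairpin genes, and the values do not tell a precursor from the mature microRNA. The mature sequences of the 4 rows at the unadjusted mark are shown to place them in 1 family; capitals are the seed, bases 2 to 8, which pairs with targets.
let-7f-5p: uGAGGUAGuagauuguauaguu
let-7a-5p: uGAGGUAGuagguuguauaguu
let-7d-5p: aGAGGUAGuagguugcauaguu
let-7b-5p: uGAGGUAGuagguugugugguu
All 8 distinct let-7 5p sequences in the RefSeq table share 1 seed. LIN28 proteins are known to recognise GGAG in the loop region; 9 of 11 let-7 hairpins hold these letters somewhere, as do 44.5% of all 1005 mouse hairpins in the table.

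Of the 11 let-7 rows, all had a higher mean in Tip110-/-, and in 9 both Tip110-/- arrays lay above both wild-type arrays, where 39.9% of all genes did. Mirlet7f-2 was at 3.72 and 3.81 in wild-type against 4.98 and 4.47 in Tip110-/- (0.96 ± 0.22, SE; limma adjusted p = 0.333). Mirlet7d had the highest signal, 6.77 and 6.73 against 7.89 and 7.91, with nearly equal values within each genotype (1.15 ± 0.40, SE; limma adjusted p = 0.377). Mirlet7a-1 was at 4.40 and 4.27 against 6.19 and 5.09, and Mirlet7b at 4.50 and 4.30 against 5.67 and 4.85. These 4 were higher at an unadjusted p under 0.05, a mark that 8.99% of all genes reached in that direction, and none passed after adjustment. The count was 1 without either wild-type array, 2 without the Tip110-/- pool, 8 without the single Tip110-/- outgrowth and 7 with exon control centring. The other 7 rows differed by 0.03 to 1.03. The median difference was 0.81, larger in the pools (1.27) than in the single outgrowths (0.26). Mirlet7d, at 1.11 and 1.18, did not follow that pattern. With quantile normalization or centring on the gene median 9 of the 11 rows were higher, at medians of 0.72 and 0.64. Without the pooled Tip110-/- array 9 were higher, at a median of 0.34.

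**Figure D3:**
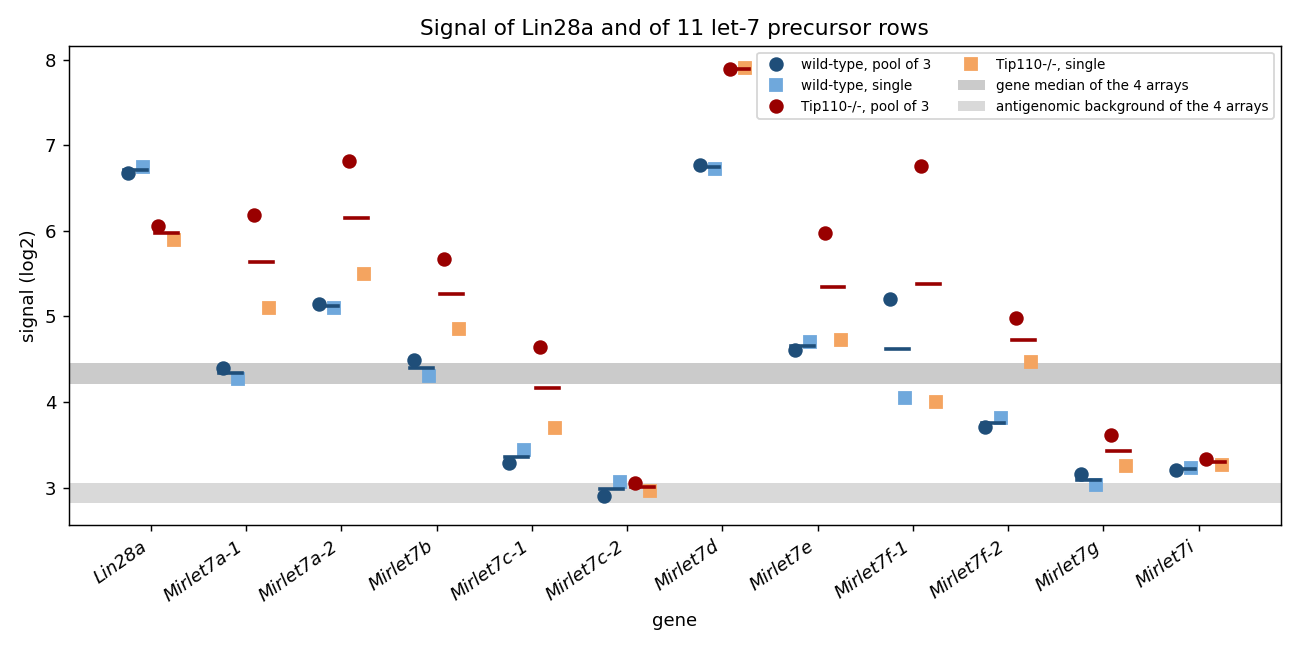
Signal (log2) of Lin28a and of the 11 let-7 rows in the 4 arrays, with symbols, genotype means and grey bands for gene median and antigenomic background. Lin28a is lower in both Tip110-/- arrays, Mirlet7d is higher in both by more than 1, and Mirlet7c-2, Mirlet7g and Mirlet7i stay below the gene median in all 4.

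The other 11 measured genes of the LIN28 and let-7 list make, process or answer to these microRNAs. Drosha, the nuclease that cuts primary microRNAs, was at 11.76 and 11.44 against 10.03 and 10.31 (-1.43 ± 0.51, SE; limma adjusted p = 0.381) and was the only gene of the list lower at the unadjusted mark. No gene other than the let-7 rows was higher at that mark. Over all genes 3.67% were lower and 8.99% higher, so 1 lower gene of 22 measured is near the share. With exon control centring, and with a replicate term in the fit, 0 genes of the list were lower.

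Tdh, the set's unmeasured enzyme, feeds threonine into glycine and one-carbon metabolism, on which mouse embryonic stem cells are known to depend. Of 17 measured genes of that metabolism, 13 did not pass an unadjusted p under 0.05, while 4 were lower and 0 higher. Those directions were reached by 3.67% and 8.99% of all genes. The median difference was -1.08, against 0.15 for all genes; it was -0.59 without the wild-type pool and -0.45 with arrays centred on their exon control rows, where the median of all genes was 0.78. Without the single Tip110-/- outgrowth 2 genes were lower. Gldc, the glycine decarboxylase, was at 7.60 and 9.52 against 5.92 and 5.77, and Ahcy, which clears S-adenosylhomocysteine, at 12.50 and 12.80 against 10.84 and 10.41. The amino acid transporters Slc1a5, at 7.62 and 7.55 against 4.93 and 5.49, and Slc7a5, at 9.49 and 8.04 against 7.16 and 7.01, were lower too. Another transporter of the list, Slc38a2, was higher in both Tip110-/- arrays, at 10.385 and 9.507 against 10.677 and 12.833, without passing. The 4 lower genes had groups that did not overlap, as 12.9% of all genes did in that direction. Their choice by p makes this likely, so it is no separate support. No limma adjusted p of the 17 genes was below 0.290.

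For TCL1 and AKT signalling, 1 of 18 measured genes was lower and 2 were higher at that mark, with a median difference of 0.02. Over all genes these marks were reached by 3.67% and 8.99%. Eras, a constitutively active RAS of embryonic stem cells, was at 9.01 and 7.86 against 6.62 and 6.42. The Tcl1 relatives Tcl1b2, at 3.79 and 3.67 against 4.20 and 4.68, and Tcl1b5, at 4.27 and 4.22 against 5.08 and 4.60, were higher. Their wild-type levels were near or below the gene median. With arrays centred on their gene median 3 genes were lower and 0 higher. With exon control centring 0 were lower and 3 higher, at a median difference of 0.65 against 0.78 for all genes.

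The 9 markers differed in how the 2 Tip110-/- arrays related to each other. In 7 of them the single Tip110-/- outgrowth was below the Tip110-/- pool; Utf1 and L1td1 were the exceptions, higher in the single outgrowth by 0.43 and 0.29. The gap between the Tip110-/- arrays had a median of 1.11 over the 9 genes, against 0.47 between the wild-type arrays; over all genes these medians were 0.24 and 0.19. Taken within pools, the median genotype difference of the markers was -1.42, and within single outgrowths -3.35. Pou5f1 differed by -2.29 in pools and -4.53 in single outgrowths, Sox2 by -3.41 and -5.26, and Nanog by -3.46 and -11.04. With 1 array of each kind the difference between pools and single outgrowths was not tested.

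**Figure D4:**
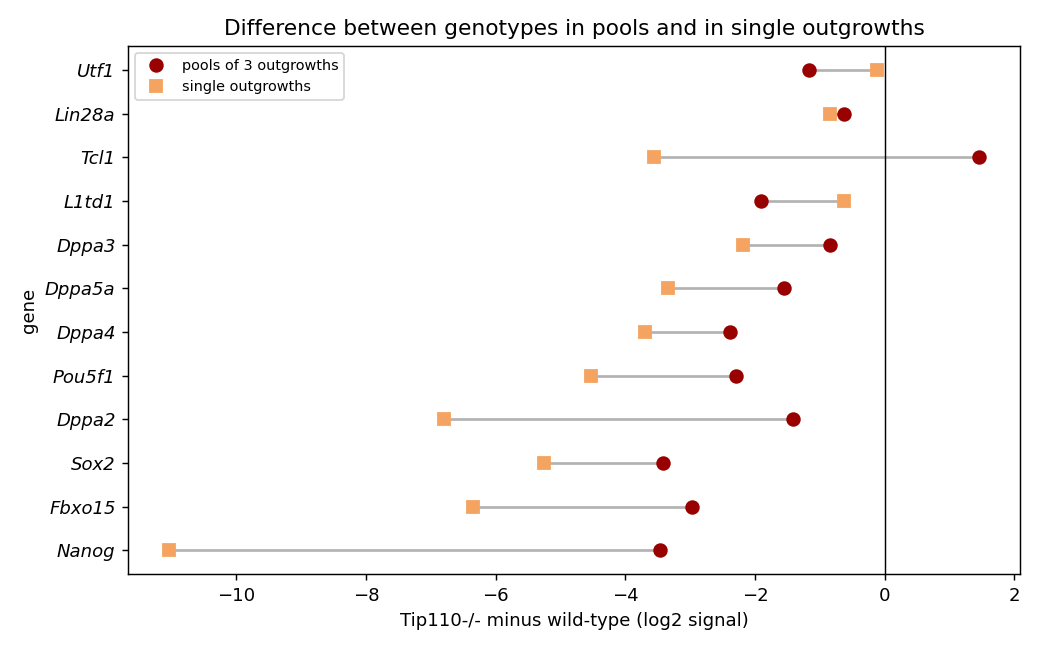
Difference between genotypes (Tip110-/- minus wild-type, log2 signal) in pools of 3 outgrowths (circles) and in single outgrowths (squares) for the 9 markers and for Pou5f1, Nanog and Sox2; the grey line joins both values of a gene and the vertical line marks no difference. Most squares lie left of their circles, Utf1 and L1td1 the other way round, and Tcl1 crosses 0, from 1.46 to -3.56.

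Of 37 other embryonic stem cell markers measured, 23 were lower and 0 higher at an unadjusted p under 0.05. Over all genes 3.67% were lower and 8.99% higher at that mark, and 6.17% of genes above the median row were lower. Since this list too was chosen with earlier results known, its count is no test. The median difference of the 37 was -1.53, against 0.15 for all genes, with a range from -7.97 to 1.801 (Pecam1). A lower mean was found in 32 of the 37. Klf4 (-0.81), Zfp42 (-0.69) and Sall4 (-0.34) were among those that did not pass. The 6 with the smallest p were the growth factor gene Fgf4 (-4.15), the nuclear receptor gene Nr0b1 (-7.97), the Nodal co-receptor gene Tdgf1 (-6.05), the Polycomb gene Phc1 (-2.49), the junction protein gene Jam2 (-4.54) and Sox2 (-4.34). The count was 13 without the single wild-type outgrowth and 14 without the single Tip110-/- outgrowth.

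The arrays were also read for markers of each lineage, whose part in the result was not tested. All 8 epiblast markers were lower at the unadjusted mark, which 3.67% of all genes reached. With exon control centring 6 of the 8 were lower at that mark. These 8 are also among the 37 stem cell markers above, so the 2 counts are not independent. Klf4, Zfp42 and Sall4, of the 37, did not pass and are not among the 8. The log2 of the summed signal of the 8 was 14.42 and 15.65 in wild-type against 10.85 and 8.03 in Tip110-/-. Of 13 trophoblast markers 1 was higher, Gata2, and 0 lower, where 8.99% and 3.67% of all genes were. The sums were 18.64 and 18.01 against 18.52 and 19.44 and come almost wholly from Prl2c2, Krt8 and Krt18. The single Tip110-/- outgrowth had the highest sum. It was not the highest array for Cdx2, Elf5, Ascl2, Ctsq, Tpbpa or Krt7. Tpbpa, the spongiotrophoblast marker, was near the gene median in all arrays. Of 9 primitive endoderm markers none passed in either direction, with sums of 13.00 and 12.19 against 11.52 and 12.16 that come almost wholly from Sparc (12.90 and 12.13 against 11.38 and 12.03), and Sox17 and Sox7 were at most 3.86. All 8 fibroblast markers lay between 3.29 and 4.38 in every array, with sums of 6.67 and 6.75 against 7.02 and 6.82, and none passed.

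By the distance between log2 values centred on each gene's mean over the 4 arrays, the genes most like the mean profile of the 9 markers were Tsn (0.183), Cenpp (0.233), Ube2dnl1 (0.245), Bub1 (0.303) and Nudt1 (0.303), of 22433 genes compared. The gene nearest to Dppa4 was Nfu1, to Dppa5a Hmgb2, to Fbxo15 Jam2, to Dppa3 Igfbp2 and to Dppa2 Elobl. L1td1 was nearest to Hesx1, Utf1 to Eif3i, Lin28a to Gga2 and Tcl1 to Cbl. Within the set Dppa4 and Dppa5a (0.732), Utf1 and Lin28a (0.641) and Utf1 and L1td1 (0.693) were the closest pairs, and Dppa2 and Utf1 (5.10) the farthest apart. With 4 arrays such likeness is a description of these samples.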

How the data were processed

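RNA of 2 wild-type and 2 Tip110-/- samples was measured on Affymetrix whole-transcript arrays. The values are log2 signal as deposited; the submitters' processing notes name Transcriptome Analysis Console and Affymetrix Expression Console, without role or version. The sources used here do not give the normalization method or the build. The log base is a reading of the values' range. The labels state 144 pg of RNA per array and the design text 100 pg.

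Of 72688 rows, 30604 carried 1 distinct symbol in the platform annotation, which gave 30142 genes after keeping the row with the highest mean. Symbols were updated or matched by Entrez ID for 22818 rows, a count that includes rows whose symbol stayed the same. Rows with several symbols (2146), none (33206) or control content (6732) were left out. Each gene was fitted with limma 3.58.1 in R 4.3.3 (lmFit, eBayes with an intensity trend), genotype being the only term, with two-sided p-values and Benjamini-Hochberg adjustment over all genes. Tables were handled with pandas 2.3.3 in Python 3.11.15. The fit was tested on simulated data.

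Gene lists came from textbook knowledge, and the members and lists were chosen with earlier results of these data known. The genes named are the 10 markers, Sart3, Pou5f1, Nanog and Sox2, with up to 6 genes per list by smallest p. The genes of nearest profile were named as well. Lin28b, Uhrf1, Dppa1, Tpbpa, Sox17, Sox7, Sparc, Zfp809 and the remaining let-7 rows were named after their values were seen. So were Prl2c2, Krt18, Krt7, Cdx2, Elf5, Ascl2, Klf4, Zfp42, Sall4, Pecam1 and Slc38a2. With 2 arrays per group, each SD rests on 2 values, and their number limits the precision. The labels call the samples biological replicates. Alternatives were other scalings, filters, variance priors, array weights, row choices, a replicate term and each array left out.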

Additional observations from a re-analysis of the deposited data

Results flagged for a closer look

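Tcl1 was higher in the Tip110-/- pool than in the wild-type pool, a difference of 1.46, and lower in the single Tip110-/- outgrowth than in the single wild-type outgrowth, a difference of -3.56. It stood out because both kinds of sample moved in opposite directions under the same contrast. The difference between them was not tested, since each kind of sample has 1 array per genotype.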

How the results depend on the processing

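Over 14 alternatives the 9 genes gave 126 differences, of which 125 kept their direction; the exception was Tcl1 without Tip110-/- replicate 2, at 1.23; it was -3.32 without Tip110-/- replicate 1. With arrays centred on their exon control rows, 3 genes passed the adjusted threshold by limma: Fbxo15 (-4.03, adjusted p = 1.74e-05), Dppa2 (-3.48, adjusted p = 0.000201) and Dppa5a (-1.82, adjusted p = 0.000939). That setting gave every gene the variance of the intensity trend, because the estimated prior degrees of freedom were infinite. They were 3.04 in the main fit. The setting also moved the median of all genes to 0.78. In the other 13 alternatives 0 of the 9 passed. Leaving out 1 array at a time gave 4 to 6 genes lower at an unadjusted p under 0.05, 0 to 0 past the adjusted threshold, and a median difference of -3.30 to -1.41, the former without Tip110-/- replicate 1. With the replicate block the median was -1.51, 6 genes were lower and 0 passed (smallest limma adjusted p = 0.372); the replicate numbers also separate pools from single outgrowths, nothing in the labels pairs them, and the correlation over genes of the deviations of equal numbers was -0.09. The array table carries no detection calls, so signal over background was judged from the antigenomic rows alone.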

Other observations

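The list of genes expressed in the oocyte and early embryo, a group that includes KH-domain relatives of Dppa5a, had 11 measured genes. Of these, 2 were lower and 0 higher at an unadjusted p under 0.05, where 3.67% and 8.99% of all genes were. Nlrp4f, of the NLRP family of oocyte genes, was at 6.35 and 7.18 in wild-type against 3.98 and 3.93 in Tip110-/-, a difference of -2.81 ± 0.35 (SE; limma adjusted p = 0.287). Ooep, a KH-domain gene of the subcortical maternal complex, was at 5.64 and 5.86 against 5.05 and 5.14. The median difference of this list was -0.14 and changed sign with the arrays used and the scaling: it was 0.17 without the single wild-type outgrowth, 0.20 without the single Tip110-/- outgrowth, -0.77 without the wild-type pool and 0.49 with arrays centred on their exon control rows.

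The SCF ubiquitin ligase, the complex that F-box proteins such as FBXO15 join, had 9 measured genes. Of these, 1 was lower at that mark and 0 higher, where 3.67% and 8.99% of all genes were. The core subunit genes Skp1, at 8.91 and 9.24 against 8.93 and 9.28, and Cul1, at 9.69 and 10.19 against 10.23 and 10.34, overlapped or lay close between genotypes. Fbxo5, an F-box inhibitor of the anaphase-promoting complex, was at 6.89 and 8.06 against 6.05 and 4.91 (-1.995 ± 0.612, SE; limma adjusted p = 0.354). Skp1 and Cul1 were named after their values were seen.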
